A study of Mus musculus with 12 samples.

Results

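The Slc25 genes encode the largest family of transport proteins of the mitochondrial inner membrane, and their transcripts were measured here in mouse liver after a high-fat diet with and without fenofibrate. The members are the protein-coding genes whose symbol is Slc25a followed by a number, except 4 that are not reported here. By this rule 41 of the 25164 genes listed were members. The rule used symbols only and no measured value. RNA from whole liver was sequenced in 12 libraries, 4 per group. HFD plus fenofibrate mice were kept on a high-fat diet for 14 weeks and were gavaged with fenofibrate for 4 of them, starting after 10 weeks. HFD mice had the high-fat diet alone and Control mice a normal diet, each over the same 14 weeks. The study assigned 10 mice to each group. The sources used here do not give strain, sex, age, fenofibrate dose or whether the other groups were gavaged.

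An Slc25 protein is built of repeated pairs of membrane helices and usually exchanges a solute of the cytosol for one of the matrix. Members carry ATP and ADP, phosphate, citrate and other carboxylates, amino acids, glutathione, iron and the cofactors that matrix enzymes need. In liver they join mitochondrial oxidation to gluconeogenesis, lipogenesis, urea synthesis and the shuttles that move reducing equivalents. Fenofibrate is a lipid-lowering drug whose active form is a ligand of the nuclear receptor PPARA, which controls genes of fatty acid oxidation in mitochondria and peroxisomes.

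Total counts ran from 15797016 to 18514481 per library, and 13477 genes with enough counts were tested, of which 37 were members. Single-gene levels are in CPM (reads scaled to library size, after TMM adjustment), changes are log2 fold changes ± SE, and means are given ± SD (n = 4 libraries per group). A gene is said to have risen or fallen where edgeR's quasi-likelihood test gave a Benjamini-Hochberg adjusted p under 0.05 over all genes tested. Nothing in the labels says which libraries shared a cage, a dissection or a run, so each p-value reflects library spread, which may be technical. In whole tissue, fewer cells of a type and less RNA per cell cannot be told apart.

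The libraries were liver by their markers, and fenofibrate libraries 1 and 3 stood apart. The 11 hepatocyte markers listed of 12 summed to 131353 to 147916 CPM of total counts in the HFD plus fenofibrate libraries, 132929 to 144504 in HFD and 143472 to 154352 in Control. For striated muscle, the 9 markers listed of 10 came to 247 and 192 CPM in libraries 1 and 3 of the fenofibrate group. The other fenofibrate libraries had 0.831 and 0.648 CPM of them, HFD libraries 0.765 to 1.15 CPM and Control libraries 0.348 to 0.833 CPM, with Ckm, Myh1 and Myh4 at 0 counts in every HFD and Control library and Myl1 also at 0 in Control. Pancreatic acinar markers (12 genes) reached 2187 CPM in fenofibrate library 1 but only 9.02 to 13.9 CPM in libraries 2 to 4 of that group, against 18.2 to 31.1 CPM in HFD and 6.24 to 9.92 CPM in Control. Of these 12 markers, 9 had 0 counts in every HFD library and 10 in every Control library. The sums there were mostly Cela1, with 25.3 ± 4.02 TMM-scaled CPM in HFD and 8.36 ± 1.95 in Control. Where leaving out fenofibrate libraries 1 and 3 ends the call of a member in a comparison with fenofibrate, the value without them is given.

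Promoters of 3 members are shown because the results turn on their transcripts. Slc25a30 and Slc25a17 fell with fenofibrate, and Slc25a47 fell with the diet. Each sequence is the 250 bases before the RefSeq start site in GRCm38.p6, 5′ to 3′ on the gene's strand. Capitals mark the CCAAT box (CCAAT, or ATTGG on the other strand) and the AGGTCA motif that nuclear receptors bind (AGGTCA, or TGACCT on the other strand). The intervals are chr14:75787038-75787287 on the minus strand for Slc25a30, chr15:81360766-81361015 on the minus strand for Slc25a17 and chr12:108850879-108851128 on the plus strand for Slc25a47.
Slc25a30: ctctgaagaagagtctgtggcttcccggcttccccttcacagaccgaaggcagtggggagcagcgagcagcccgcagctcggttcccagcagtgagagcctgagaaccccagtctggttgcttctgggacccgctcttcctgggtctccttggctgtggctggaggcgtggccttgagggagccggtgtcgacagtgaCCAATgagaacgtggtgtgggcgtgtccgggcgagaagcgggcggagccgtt
Slc25a17: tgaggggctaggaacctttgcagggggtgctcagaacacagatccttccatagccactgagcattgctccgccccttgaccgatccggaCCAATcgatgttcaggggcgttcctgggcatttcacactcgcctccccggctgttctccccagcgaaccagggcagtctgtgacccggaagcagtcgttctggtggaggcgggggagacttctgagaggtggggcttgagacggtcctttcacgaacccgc
Slc25a47: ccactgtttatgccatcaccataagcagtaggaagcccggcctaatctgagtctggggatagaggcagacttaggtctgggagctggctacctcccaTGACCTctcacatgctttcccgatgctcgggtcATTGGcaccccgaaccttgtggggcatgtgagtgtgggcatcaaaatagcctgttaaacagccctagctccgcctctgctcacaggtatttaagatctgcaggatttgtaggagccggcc

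The CCAAT box began 52 bases before the start in Slc25a30, 161 bases in Slc25a17 and 120 bases in Slc25a47. The AGGTCA motif began 153 bases before the start of Slc25a47 and was not found in the other 2 windows shown. RefSeq promoters were at hand for 32 of the 41 members, with 41 windows in all. AGGTCA on either strand was in the windows of 4 members (Slc25a34, Slc25a39, Slc25a45 and Slc25a47), and 14% of all 32851 promoter windows held it. The direct repeat of AGGTCA with 1 base between the copies, searched on both strands, is the core of a PPAR response element and contains AGGTCA. It was in 0 of the members' windows and in 0.0335% of all windows. CCAAT was in 20 of the 41 windows, from 17 members, and in 33.8% of all windows. TGACGTCA, the cAMP response element, was in the windows of Slc25a25 and Slc25a36 and in 1.55% of all windows. A match describes these letters only and shows no binding.

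Levels between genes are compared per kilobase of exon, as CPM per kb. In Control liver, 15 members had at least 10 CPM per kb, 15 had from 1 to 10 and 11 had less than 1. Slc25a47, a carrier found mainly in hepatocytes whose substrate is not settled, was first in Control with 427 CPM per kb (range 348 to 557). Slc25a5, an adenine nucleotide translocase that exchanges ATP for ADP, followed with 299 (258 to 352), and the ranges of the pair overlapped. By means the order was turned in the diet groups. In HFD plus fenofibrate Slc25a5 had 267 CPM per kb (247 to 320) and Slc25a47 189 (168 to 213), with no overlap, and in HFD they had 276 (252 to 300) and 241 (209 to 312), with overlap. Slc25a39, with 154 CPM per kb in Control, and Slc25a1, the citrate carrier, with 71.4, came next in every group. In the Control order, ranges of neighbouring members did not overlap between Slc25a5 and Slc25a39, Slc25a39 and Slc25a1, Slc25a23 and Slc25a42, Slc25a42 and Slc25a17, Slc25a16 and Slc25a46, Slc25a4 and Slc25a32, and Slc25a14 and Slc25a24. All other neighbours overlapped.

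**Figure D1:**
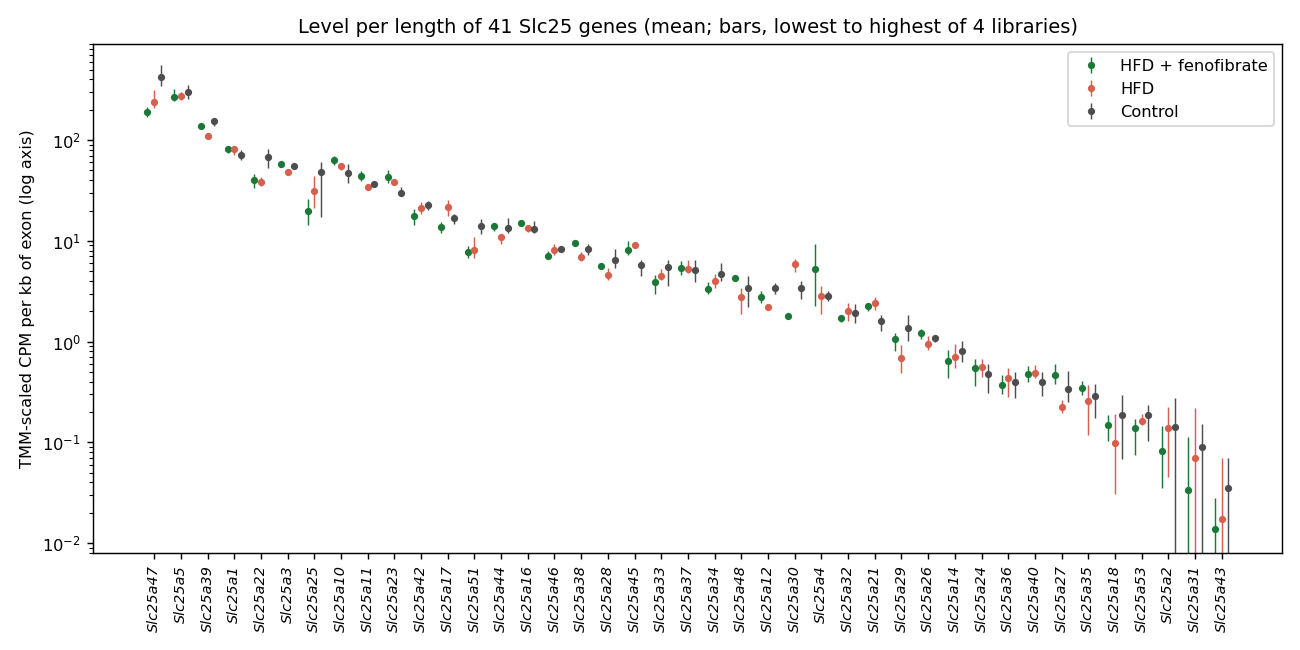
Mean TMM-scaled CPM per kb of exon (log axis) of the 41 Slc25 genes in HFD plus fenofibrate (green), HFD (red) and Control (grey), ordered by the Control level. Bars run from the lowest to the highest of 4 libraries, and a bar that reaches the bottom axis has a library at 0. The levels run from 427 CPM per kb for Slc25a47 in Control to near 0 for Slc25a43.

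The 4 members that were not tested had few counts. Slc25a18, a glutamate carrier, had 22 counts over the 4 HFD plus fenofibrate libraries, 12 over HFD and 23 over Control. Slc25a2, an ornithine carrier, had 9, 12 and 13 counts in the same groups. Slc25a31, the adenine nucleotide translocase known from testis, had 5, 10 and 12, and Slc25a43, of unknown substrate, had 2, 2 and 4.

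Summed over all 41 genes, the members made up 0.37% of counts in HFD plus fenofibrate, 0.336% in HFD and 0.422% in Control. Genes not reported here and family members under other symbols were not in this sum. The TMM-scaled sums were 3490, 3382, 3408 and 3291 CPM in the HFD plus fenofibrate libraries, 3835, 3372, 3195 and 3451 CPM in HFD and 4733, 4922, 4401 and 3849 CPM in Control. On this scale every Control library lay above every library of the diet groups, by a small margin between Control library 4 and HFD library 1. With total counts Control library 4 had 3590 CPM, below fenofibrate libraries 1, 3 and 4 with 3910, 3949 and 3607 CPM. The group means were 3393 ± 82.1 CPM in HFD plus fenofibrate, 3463 ± 270 CPM in HFD and 4476 ± 470 CPM in Control. Fenofibrate against HFD had no fixed direction: with total counts in place of TMM, the sum was 3703 ± 283 CPM in HFD plus fenofibrate and 3358 ± 58.2 CPM in HFD, with 4216 ± 468 CPM in Control. Slc25a47 alone was 16.6 ± 1.72% of the scaled sum in HFD plus fenofibrate, 20.7 ± 2.57% in HFD and 28.3 ± 4.23% in Control. Without it the sums were 2828 ± 64.9, 2743 ± 157 and 3202 ± 314 CPM in the same groups.

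**Figure D2:**
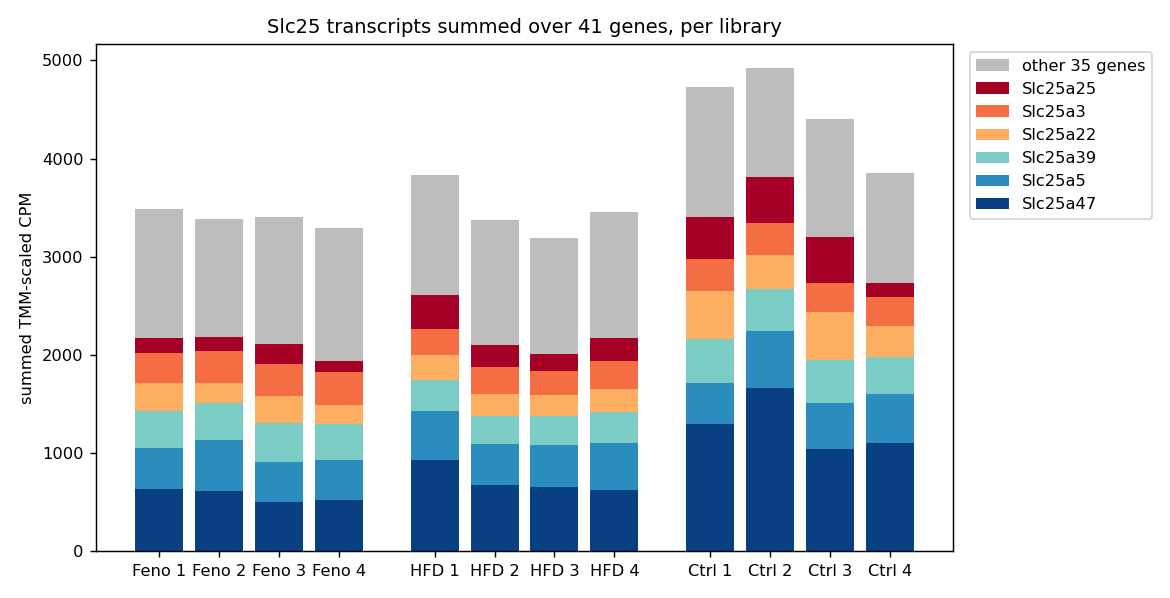
Summed TMM-scaled CPM of the 41 Slc25 genes in each library, with HFD plus fenofibrate (Feno) on the left, HFD in the middle and Control (Ctrl) on the right. Colours give 6 abundant members and grey the other 35. The Slc25a47 segment is 500 to 636 CPM with fenofibrate, 625 to 930 CPM in HFD and 1039 to 1664 CPM in Control.

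With fenofibrate on the high-fat diet, Slc25a30 fell to 0.307 and Slc25a17 to 0.637 of their levels on the diet alone. Slc25a38, Slc25a11, Slc25a27, Slc25a39 and Slc25a3 rose, by 1.2-fold for Slc25a3 to 2.08-fold for Slc25a27. Thus 5 members rose and 2 fell of 37 tested, or 18.9%, where 13.5% of all 13477 genes passed (6.89% higher and 6.59% lower). The median log2 change was 0.03 over the members tested and 0.01 over all genes tested. The groups did not overlap for 11 members, and for 20.7% of all genes. At an unadjusted p under 0.05 there were 16 members. With total counts in place of TMM, 10 rose and 2 fell, where 2059 of all genes were higher and 451 lower, against 928 and 888 with TMM. The median of all genes shifted by 0.17 on the log2 scale.

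The count of members that rose changed with the libraries left out. With fenofibrate libraries 1 and 3 left out, 0 members rose and 1 fell (Slc25a30) by edgeR, with 55 genes higher and 69 lower of the 13811 tested. With all libraries kept, the counts over all genes were 928 higher and 888 lower of 13477, so calls were lost across the whole set of genes. At an unadjusted p under 0.05 there were then 8 members higher and 3 lower. The share of all genes under that p is not given for this fit. The changes of the 5 genes that had risen were 0.45 for Slc25a38, 0.38 for Slc25a11, 0.90 for Slc25a27, 0.29 for Slc25a39 and 0.29 for Slc25a3 without those libraries. Members that rose numbered 0 without fenofibrate library 3, 1 without HFD library 2, 2 without HFD library 1 or 4 and 3 without fenofibrate library 1. DESeq2 on all libraries gave 7. Counts over all genes are not given for DESeq2 or the fits with 1 library left out, so no share stands beside those member counts.

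The diet alone, set against Control, changed 11 of 37 members tested. Slc25a30, Slc25a45, Slc25a21 and Slc25a23 rose, and Slc25a29, Slc25a22, Slc25a47, Slc25a51, Slc25a12, Slc25a39 and Slc25a28 fell. The share was 29.7% of members, where 12.8% of all genes passed (6.13% higher and 6.64% lower). The median log2 change was -0.16 over the members tested and -0.02 over all genes tested. Groups did not overlap for 12 members and for 17.6% of all genes, and 15 members had an unadjusted p under 0.05. By that edgeR p, Slc25a44 (0.0265) was number 2851 and Slc25a27 (0.0616) number 3921 of all 13477 genes. Changes ran from -0.99 for Slc25a29 to 0.80 for Slc25a30.

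HFD plus fenofibrate against Control sets the drug and the diet together against normal feeding. Slc25a23, Slc25a45, Slc25a21 and Slc25a10 rose, and Slc25a47, Slc25a25, Slc25a30, Slc25a51, Slc25a22 and Slc25a34 fell. These were 27% of the 37 members tested, where 9.17% of all genes passed (4.86% higher and 4.31% lower). The median log2 change was -0.07 over the members tested and -0.01 over all genes tested. Groups did not overlap for 9 members and for 13.1% of all genes, and 17 members had an unadjusted p under 0.05. By that edgeR p, Slc25a46 (0.04) was number 3013 of all 13477 genes. With total counts in place of TMM, 9 rose and 5 fell, where 2119 of all genes were higher and 298 lower, against 655 and 581 with TMM. The median of all genes then shifted by 0.21 on the log2 scale. Without fenofibrate libraries 1 and 3, 1 rose (Slc25a23) and 3 fell (Slc25a47, Slc25a30 and Slc25a22), with 215 genes higher and 158 lower of all 13811 tested in that fit. The 3 comparisons share groups, so their values below are set side by side and are not independent. Counts by substrate group below stand beside the shares over all genes, 13.5%, 12.8% and 9.17% in the order of the comparisons above. In all, 19 members passed in at least 1 comparison, and 18 of those tested passed in none.

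**Figure D3:**
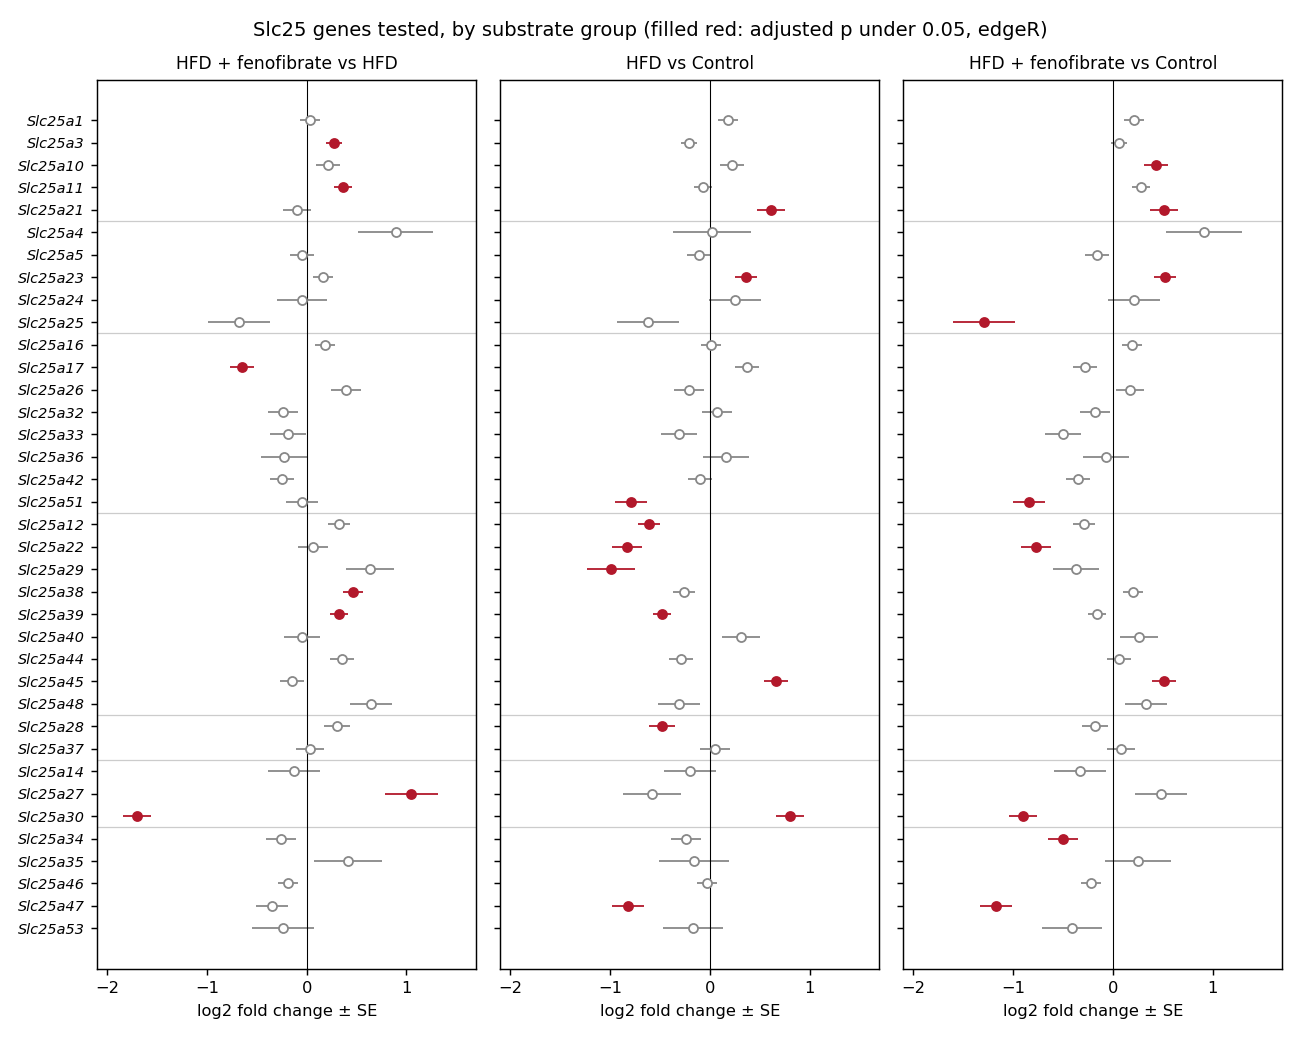
Log2 fold change ± SE of the 37 tested Slc25 genes in each comparison, grouped by substrate (carboxylate and phosphate; adenine nucleotide; cofactor and pyrimidine nucleotide; amino acid, glutathione and choline; iron; uncoupling-protein-like; no settled substrate). Filled red points have an adjusted p under 0.05 by edgeR. Slc25a30 lies at -1.70 for HFD plus fenofibrate against HFD and at 0.80 for HFD against Control.

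Of the uncoupling-protein-like carriers, which resemble the proton-leak protein of brown fat, Slc25a30 moved most. Slc25a30, also called kidney mitochondrial carrier protein, lies on chromosome 14 (75761999 to 75787037, minus strand). It had 8.65, 7.68, 8.32 and 8.43 CPM in the HFD plus fenofibrate libraries, 27.3, 27.7, 22.5 and 30.4 CPM in HFD and 18.2, 12.1, 13.3 and 18.3 CPM in Control. No group overlapped another: all fenofibrate libraries lay below all Control libraries, and these below all HFD libraries. The log2 change was -1.70 ± 0.14 for HFD plus fenofibrate against HFD (adjusted p = 1.9e-05), 0.80 ± 0.14 for HFD against Control (adjusted p = 0.00138) and -0.90 ± 0.14 for HFD plus fenofibrate against Control (adjusted p = 0.00121). It was number 2 of all 13477 genes by p for fenofibrate against HFD. In the authors' deposited table of that comparison it had the lowest adjusted p of 13752 genes (log2 -1.71, adjusted p 9.8e-34). Without fenofibrate libraries 1 and 3 the change against HFD was -1.74 ± 0.20 (adjusted p = 7.9e-04).

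Slc25a27, a brain-type relative known as a neuronal uncoupling protein, was scarce in liver. It had 1.68, 1.86, 2.38 and 1.48 CPM in HFD plus fenofibrate, 0.877, 0.766, 1.04 and 0.868 CPM in HFD and 1.29, 1.04, 1.99 and 0.995 CPM in Control. All fenofibrate libraries lay above all HFD libraries, and Control overlapped both. The change against HFD was 1.05 ± 0.27 (adjusted p = 0.0225) and rested on 144 counts over the 4 HFD plus fenofibrate libraries, 57 over HFD and 87 over Control. It was 0.90 ± 0.34 without fenofibrate libraries 1 and 3 (adjusted p = 0.231). The call was also lost without fenofibrate library 3 (0.91, adjusted p = 0.0887) and without HFD library 1, 2 or 4 (0.99 to 1.05, adjusted p 0.0564 to 0.0606). Slc25a14, the third of these genes, had 1.53 ± 0.401 CPM with fenofibrate, 1.67 ± 0.409 CPM in HFD and 1.93 ± 0.38 CPM in Control and passed in no comparison.

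**Figure D4:**
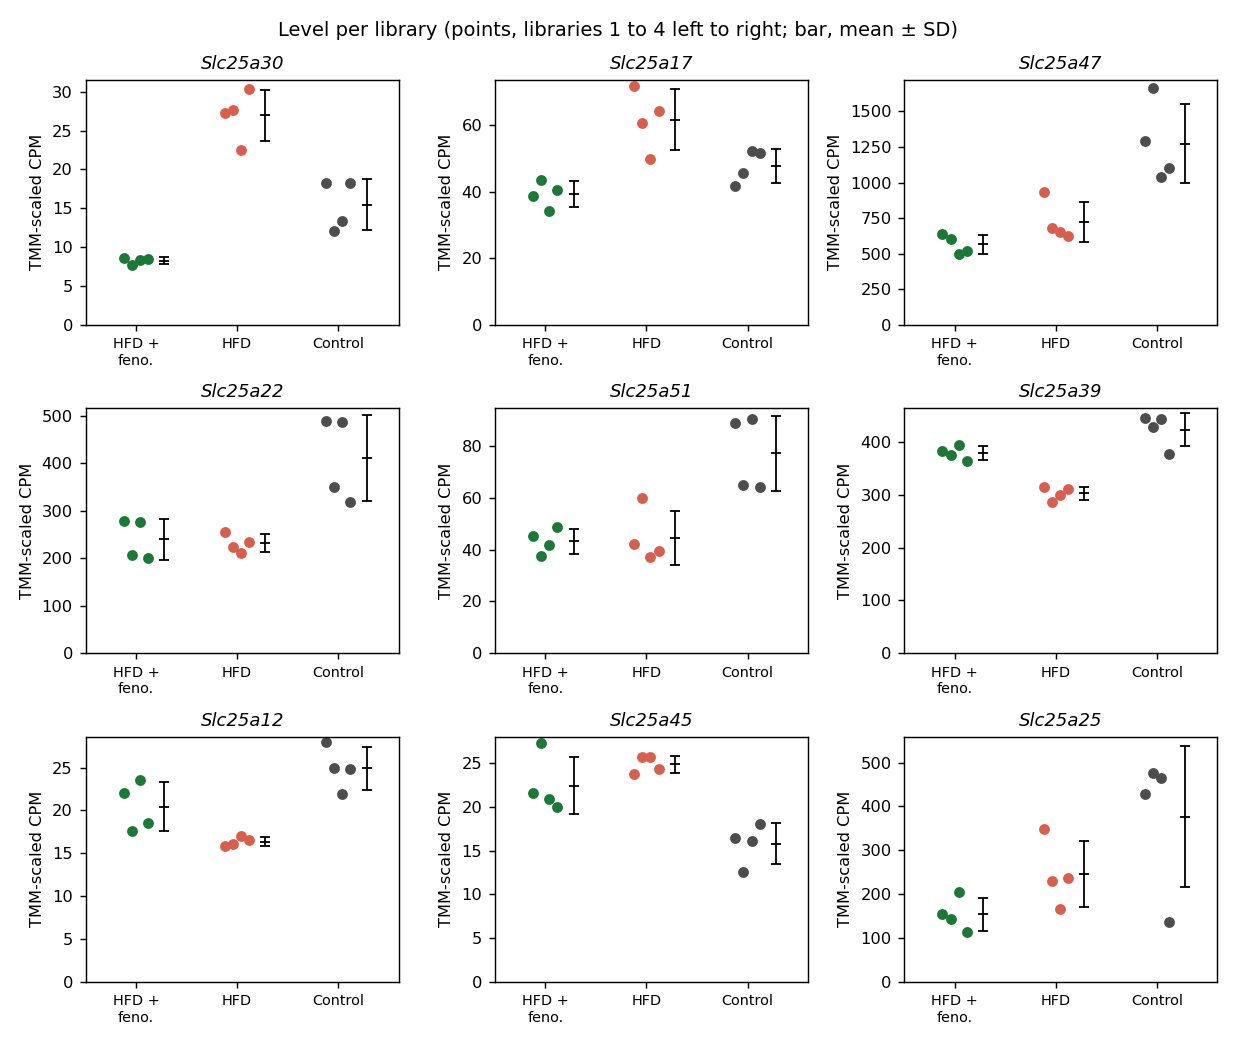
TMM-scaled CPM of 9 Slc25 genes in each library, in the order HFD plus fenofibrate, HFD and Control, with libraries 1 to 4 from left to right and bars for mean ± SD; each axis starts at 0. Slc25a30 is separate in all 3 groups, Slc25a47, Slc25a22 and Slc25a51 are highest in Control, and Control library 4 of Slc25a25 lies at 137 CPM below the other 3 Control libraries.

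Among the 8 cofactor and pyrimidine nucleotide carriers, 1 fell with fenofibrate against HFD, 1 fell with the diet and 1 was lower with fenofibrate than in Control. Slc25a17 differs from most of the family in lying in the peroxisomal membrane, where it carries coenzyme A, FAD and NAD. It had 38.6, 43.5, 34.3 and 40.6 CPM in HFD plus fenofibrate, 71.7, 60.5, 49.9 and 64.3 CPM in HFD and 41.7, 45.5, 52.1 and 51.6 CPM in Control. Every fenofibrate library lay below every HFD library, and Control overlapped both groups. The change was -0.65 ± 0.12 for HFD plus fenofibrate against HFD (adjusted p = 0.00383) and 0.37 ± 0.12 for HFD against Control (adjusted p = 0.0515). The authors' deposited table gave HFD against Control an adjusted p of 0.0422, and the change passed in edgeR with library 3 of the fenofibrate group left out (0.38, adjusted p = 0.0479) and with library 3 of the HFD group left out (0.46, adjusted p = 0.0181). It also passed with DESeq2 (0.38, adjusted p = 0.0271), RLE scaling (0.38, adjusted p = 0.0466) and total counts (0.41, adjusted p = 0.0164). The change against HFD was -0.55 ± 0.15 without fenofibrate libraries 1 and 3 (adjusted p = 0.106).

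Slc25a51, the mitochondrial carrier of NAD, was lower in both diet groups than in Control. It had 45.1, 37.5, 41.6 and 48.6 CPM in HFD plus fenofibrate, 42, 59.8, 37 and 39.4 CPM in HFD and 88.9, 65, 90.5 and 64.3 CPM in Control. No library of either diet group reached the lowest Control library. The change was -0.79 ± 0.16 for HFD against Control (adjusted p = 0.00404) and -0.84 ± 0.16 for HFD plus fenofibrate against Control (adjusted p = 0.00406). Without fenofibrate libraries 1 and 3 the second was -0.83 (adjusted p = 0.0572). Between HFD plus fenofibrate and HFD it was -0.05 ± 0.16 (adjusted p = 0.874). The exons of Slc25a51 overlap a small RNA gene on the same strand by 125 bases.

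The other 6 genes of this group passed in no comparison. They were the coenzyme A carrier Slc25a42, the related Slc25a16, the S-adenosylmethionine carrier Slc25a26, the folate and FAD carrier Slc25a32 and the pyrimidine nucleotide carriers Slc25a33 and Slc25a36. Slc25a42 had 106 ± 14.8 CPM with fenofibrate, 126 ± 15.6 CPM in HFD and 135 ± 15.2 CPM in Control. Slc25a26, whose change against HFD was the largest of the 6, had 5.9 ± 0.584 CPM with fenofibrate and 4.51 ± 0.708 CPM in HFD (0.39 ± 0.15, adjusted p = 0.0844). For HFD plus fenofibrate against Control, Slc25a16 passed without Control library 1 (0.30, adjusted p = 0.0367). Slc25a33 did so without Control library 4 (-0.66, adjusted p = 0.0208). With total counts, Slc25a16 passed against Control (0.39, adjusted p = 0.0281) and against HFD (0.34, adjusted p = 0.0491). Slc25a26 then passed against HFD (0.56, adjusted p = 0.0247). On that scale the median of all genes shifted by 0.21 against Control and 0.17 against HFD.

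Of the genes with no settled substrate, Slc25a47 fell most. It lies on chromosome 12 (108836046 to 108856815, plus strand). The 4 HFD plus fenofibrate libraries had 636, 606, 500 and 517 CPM, HFD libraries 930, 677, 649 and 625 CPM and Control libraries 1289, 1664, 1039 and 1104 CPM. All Control libraries lay above all libraries of the diet groups, while the HFD plus fenofibrate and HFD ranges overlapped between 625 and 636 CPM. The change was -0.82 ± 0.16 for HFD against Control (adjusted p = 0.00351), -1.17 ± 0.16 for HFD plus fenofibrate against Control (adjusted p = 5.6e-04) and -0.35 ± 0.16 for HFD plus fenofibrate against HFD (adjusted p = 0.146). The second of these was -1.17 ± 0.21 without fenofibrate libraries 1 and 3 (adjusted p = 0.00967).

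Slc25a29, which carries basic amino acids, is the neighbour of Slc25a47 and is read from the other strand. The gene models of the tables lie 162 bases apart. The RefSeq start of Slc25a47, whose promoter is shown above, lies inside its gene model and farther from Slc25a29. Slc25a29 had 3.01, 2.1, 2.77 and 3.2 CPM in HFD plus fenofibrate, 1.28, 1.94, 2.39 and 1.55 CPM in HFD and 4.81, 2.66, 3.05 and 3.8 CPM in Control. HFD libraries lay below all Control libraries, and fenofibrate libraries overlapped both. The change was -0.99 ± 0.24 for HFD against Control (adjusted p = 0.0146) and was -0.80 without Control library 1 (adjusted p = 0.0599). For HFD plus fenofibrate against HFD it was 0.63 ± 0.24 (adjusted p = 0.0948).

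Slc25a34 had 8.4, 7.86, 10.5 and 8.72 CPM in HFD plus fenofibrate, 12.6, 10.2, 9.02 and 10.7 CPM in HFD and 11.1, 10.7, 12.5 and 16 CPM in Control. It fell in HFD plus fenofibrate against Control (-0.50 ± 0.15, adjusted p = 0.0476), with no overlap between those groups, and without fenofibrate libraries 1 and 3 the change was -0.59 ± 0.19 (adjusted p = 0.132). It also missed the threshold without fenofibrate library 1, 2 or 4, HFD library 2, 3 or 4 or Control library 3 or 4 (-0.50 to -0.36, adjusted p 0.0501 to 0.161), and with total counts (-0.28, adjusted p = 0.229). The call was lost too with limma-voom (-0.48, adjusted p = 0.0514) and in the fit of the 8 libraries compared (-0.50, adjusted p = 0.072). Slc25a46, an outer membrane protein that acts in mitochondrial fusion and fission, had 38.8 ± 3.59 CPM with fenofibrate, 44.1 ± 4.61 CPM in HFD and 45 ± 2.01 CPM in Control and passed in no comparison. Slc25a35 and Slc25a53 had means of 0.956 to 1.47 CPM over the groups and also passed in none.

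The amino acid, glutathione and choline carriers had 9 tested genes. Against HFD, 2 rose with fenofibrate; 1 rose and 4 fell with the diet against Control; and 1 rose and 1 fell with fenofibrate against Control. Slc25a22, a carrier of glutamate, had 279, 206, 276 and 200 CPM in HFD plus fenofibrate, 256, 224, 211 and 235 CPM in HFD and 490, 349, 486 and 319 CPM in Control. Control libraries lay above all others, and the diet groups overlapped. The change was -0.83 ± 0.15 for HFD against Control (adjusted p = 0.00254) and -0.77 ± 0.15 for HFD plus fenofibrate against Control (adjusted p = 0.00602). It kept its call against Control without fenofibrate libraries 1 and 3 (adjusted p = 0.0105).

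Slc25a12, which exchanges aspartate for glutamate in the malate-aspartate shuttle, was lowest in HFD. It had 22, 17.6, 23.6 and 18.5 CPM in HFD plus fenofibrate, 15.8, 16.1, 17 and 16.5 CPM in HFD and 28, 24.9, 21.9 and 24.8 CPM in Control. The 4 HFD libraries lay below every other library. It fell by 0.61 ± 0.11 on the log2 scale in HFD against Control (adjusted p = 0.00196). The change of HFD plus fenofibrate against HFD was 0.32 ± 0.11 (adjusted p = 0.0603) and, without fenofibrate libraries 1 and 3, 0.15 ± 0.12 (adjusted p = 0.568). It passed without fenofibrate library 2 (0.39, adjusted p = 0.0287) or Control library 1 (0.33, adjusted p = 0.0418), and with total counts (0.50, adjusted p = 0.0262).

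Slc25a39, which is needed for glutathione in the matrix, had the same order of groups at a higher level. Its libraries had 382, 376, 395 and 364 CPM in HFD plus fenofibrate, 314, 287, 299 and 311 CPM in HFD and 446, 428, 443 and 377 CPM in Control. All HFD libraries lay below all others, and HFD plus fenofibrate overlapped Control. The change was 0.32 ± 0.09 for HFD plus fenofibrate against HFD (adjusted p = 0.0254), and 0.29 ± 0.11 without libraries 1 and 3 (adjusted p = 0.235). That call was lost too without fenofibrate library 1 or 3 or HFD library 1, 2 or 4 (0.30 to 0.34, adjusted p 0.0526 to 0.0742). With no low-count filter the change was 0.32 (adjusted p = 0.0781). For HFD against Control it was -0.48 ± 0.09 (adjusted p = 0.00204). Its close relative Slc25a40 had 3.98 ± 0.606 CPM with fenofibrate, 4.11 ± 0.57 CPM in HFD and 3.32 ± 0.724 CPM in Control and passed in no comparison.

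Slc25a38 carries glycine into mitochondria for haem synthesis. It had 24.6, 25.6, 28.1 and 25.8 CPM in HFD plus fenofibrate, 18.2, 21.3, 17.2 and 18.8 CPM in HFD and 24.3, 19.9, 25.6 and 20.5 CPM in Control. Fenofibrate libraries lay above all HFD libraries, and Control overlapped both. It rose by 0.46 ± 0.10 on the log2 scale with fenofibrate against HFD (adjusted p = 0.0119), and the change was 0.45 ± 0.14 without libraries 1 and 3 (adjusted p = 0.141) and 0.43 without library 3 alone (adjusted p = 0.0528). Slc25a38 and the iron carrier Slc25a37 below are also genes of red cell precursors. Erythroid markers, 7 listed of 8 and none at 0 in any group, summed to 1188, 397, 202 and 347 CPM of total counts in the HFD plus fenofibrate libraries, 390 to 451 CPM in HFD and 237 to 485 CPM in Control. Of the 5 erythroid markers tested, Alas2 fell with fenofibrate against HFD (-0.88, adjusted p = 0.0045) and rose with the diet against Control (0.74, adjusted p = 0.00883). The globins went the other way against HFD: Hba-a1 by 0.57, Hba-a2 by 0.05, Hbb-bs by 0.33 and Hbb-bt by 0.14 (adjusted p 0.362 to 0.949). With the diet against Control their changes were 0.02 to 0.38, and none passed in either comparison. The part of red cell transcripts in these results was not tested.

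Slc25a45, grouped with amino acid carriers by sequence, was the member of this group that rose with the diet. It had 21.6, 27.3, 20.9 and 20 CPM in HFD plus fenofibrate, 23.8, 25.7, 25.7 and 24.3 CPM in HFD and 16.5, 12.5, 16.1 and 18 CPM in Control. Both diet groups lay above all Control libraries. The change was 0.66 ± 0.12 for HFD against Control (adjusted p = 0.00247) and 0.51 ± 0.12 for HFD plus fenofibrate against Control (adjusted p = 0.0165), the second being 0.59 ± 0.16 without fenofibrate libraries 1 and 3 (adjusted p = 0.063). Slc25a44, which carries branched-chain amino acids, and Slc25a48, a choline carrier, had changes of 0.35 ± 0.12 (adjusted p = 0.0604) and 0.64 ± 0.21 (adjusted p = 0.0561) for fenofibrate against HFD. For these 2 genes all fenofibrate libraries lay above all HFD libraries. Slc25a44 passed without fenofibrate library 2 (0.39, adjusted p = 0.0446) or Control library 1 (0.35, adjusted p = 0.0229), and Slc25a48 without HFD library 3 (0.76, adjusted p = 0.0464), Control library 2 (0.64, adjusted p = 0.0317) or Control library 3 (0.64, adjusted p = 0.048). Slc25a44 also passed with DESeq2 (adjusted p = 0.0467), total counts (0.0283) and the 8 libraries compared (0.0328). Slc25a48 did so with DESeq2 (0.0311), limma-voom (0.0439), total counts (0.0341), no low-count filter (0.032) and the 8 libraries compared (0.0265). Without fenofibrate libraries 1 and 3 the adjusted p was 0.301 for Slc25a44 and 0.303 for Slc25a48.

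The iron carriers, called mitoferrins, gave 1 call. Slc25a28, the form found in most tissues, had 21.2, 20, 22.6 and 20.9 CPM in HFD plus fenofibrate, 15.5, 17, 20.4 and 16.2 CPM in HFD and 30.9, 20, 23.1 and 21.8 CPM in Control. It fell in HFD against Control (-0.48 ± 0.13, adjusted p = 0.0264), although HFD library 3 lay above Control library 2, and the change did not pass without HFD library 1, 2 or 4 (-0.47 to -0.43, adjusted p 0.0645 to 0.076) or Control library 1 (-0.31, adjusted p = 0.0964). It also missed the threshold with total counts (-0.43, adjusted p = 0.113), in the fit of the 8 libraries compared (-0.47, adjusted p = 0.0619) and without fenofibrate libraries 1 and 3 (-0.47, adjusted p = 0.051). Slc25a37, the erythroid form, had 32.5 ± 4.55 CPM with fenofibrate, 31.8 ± 4.62 CPM in HFD and 30.8 ± 6.16 CPM in Control and passed in no comparison.

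Of the 5 carboxylate and phosphate carriers, 2 rose with fenofibrate against HFD, 1 rose with the diet and 2 were higher with fenofibrate than in Control. Slc25a11, which exchanges oxoglutarate for malate in the malate-aspartate shuttle, had 87.2, 105, 97.6 and 84.2 CPM in HFD plus fenofibrate, 75.6, 71.4, 69.7 and 75.5 CPM in HFD and 72.2, 80.3, 77.3 and 77.9 CPM in Control. Fenofibrate libraries lay above all HFD and Control libraries. The change against HFD was 0.36 ± 0.09 (adjusted p = 0.0192), and 0.38 ± 0.12 without libraries 1 and 3 (adjusted p = 0.141). It was 0.34 without fenofibrate library 3 (adjusted p = 0.0587) and 0.35 without HFD library 2 (adjusted p = 0.0503). Against Control it was 0.28 ± 0.09 (adjusted p = 0.062), and 0.34 without fenofibrate library 4 (adjusted p = 0.0412). It was 0.31 without fenofibrate libraries 1 and 3 (adjusted p = 0.2). Slc25a11 also passed against Control with DESeq2 (0.29, adjusted p = 0.0174) and with total counts (0.49, adjusted p = 0.00179). Its exons overlap a gene on the other strand by 189 bases, and the sources used here do not give the strand setting of the counting, so reads of the pair may be mixed.

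Slc25a3, the phosphate carrier that supplies ATP synthesis, had 310, 328, 328 and 330 CPM in HFD plus fenofibrate, 270, 271, 250 and 285 CPM in HFD and 325, 319, 300 and 296 CPM in Control. Fenofibrate and Control libraries each lay above all HFD libraries. HFD against Control did not pass by edgeR (-0.21 ± 0.08, adjusted p = 0.12), but did with DESeq2 (-0.20, adjusted p = 0.0336). The change of HFD plus fenofibrate against HFD was small, 0.27 ± 0.08 (adjusted p = 0.0437), and it missed the threshold under 13 of 21 alternatives. Among them were the fits with 1 library left out, be it any fenofibrate or HFD library or Control library 3 or 4 (0.24 to 0.30, adjusted p 0.0511 to 0.0975). Without libraries 1 and 3 it was 0.29 ± 0.11 (adjusted p = 0.212).

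Slc25a10, the dicarboxylate carrier, had 243, 195, 226 and 224 CPM in HFD plus fenofibrate, 175, 195, 202 and 197 CPM in HFD and 200, 130, 177 and 151 CPM in Control. The groups overlapped. It rose in HFD plus fenofibrate against Control (0.43 ± 0.12, adjusted p = 0.039), and without fenofibrate libraries 1 and 3 the change was 0.36 ± 0.16 (adjusted p = 0.292). The call was lost as well without fenofibrate library 1, 3 or 4, HFD library 2 or 4 or Control library 2 or 4 (0.33 to 0.44, adjusted p 0.0521 to 0.112). In the fit of the 8 libraries compared the change was 0.43 (adjusted p = 0.0769). Slc25a21, which carries oxoadipate of lysine breakdown, had 11.6, 11.7, 11 and 9.9 CPM in HFD plus fenofibrate, 13.1, 13.5, 10.9 and 9.92 CPM in HFD and 6.21, 7.52, 8.33 and 9.02 CPM in Control. Both diet groups lay above Control. The change was 0.61 ± 0.14 for HFD against Control (adjusted p = 0.01) and 0.51 ± 0.14 for HFD plus fenofibrate against Control (adjusted p = 0.0332), the second being 0.49 ± 0.18 without fenofibrate libraries 1 and 3 (adjusted p = 0.207). It was lost without fenofibrate library 1, 2 or 3 or Control library 1 or 2 (0.43 to 0.52, adjusted p 0.0522 to 0.0805). Exons of Slc25a10 and Slc25a21 also overlap genes of the other strand, by 228 and 189 bases. Slc25a1, the citrate carrier of lipogenesis, had 179 ± 12.9 CPM with fenofibrate, 175 ± 15.5 CPM in HFD and 154 ± 16.2 CPM in Control. It passed in no comparison with TMM. With total counts it passed for HFD plus fenofibrate against Control (0.42, adjusted p = 0.0271).

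The adenine nucleotide group holds the translocases and the calcium-regulated carriers that exchange ATP-Mg for phosphate. Of 5 tested, 0 passed for fenofibrate against HFD, 1 rose with the diet, and 1 rose and 1 fell with fenofibrate against Control. Slc25a23 had 225, 198, 220 and 269 CPM in HFD plus fenofibrate, 192, 214, 205 and 204 CPM in HFD and 181, 149, 148 and 157 CPM in Control. Control libraries lay below all others. The change was 0.36 ± 0.11 for HFD against Control (adjusted p = 0.0362), lost under 12 of 21 alternatives, among them each HFD library, fenofibrate library 1 and Control libraries 2, 3 and 4 left out (0.32 to 0.39, adjusted p 0.05 to 0.0951). It was 0.52 ± 0.11 for HFD plus fenofibrate against Control (adjusted p = 0.0063), lost under 0 of 21. Its exons overlap a gene of the other strand by 168 bases.

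Slc25a25, of the same type, varied widely among Control libraries. It had 154, 142, 204 and 114 CPM in HFD plus fenofibrate, 349, 230, 166 and 237 CPM in HFD and 429, 476, 465 and 137 CPM in Control. Control library 4 lay within the fenofibrate range, far below the other 3 Control libraries. The change was -1.29 ± 0.31 for HFD plus fenofibrate against Control (adjusted p = 0.0176) and -1.54 ± 0.41 without fenofibrate libraries 1 and 3 (adjusted p = 0.0619). The call was lost without fenofibrate library 4 (-1.17, adjusted p = 0.0579) or Control library 2 (-1.16, adjusted p = 0.0549). For HFD plus fenofibrate against HFD it was -0.68 ± 0.31 (adjusted p = 0.15), where the authors' deposited table gave an adjusted p of 0.00938. In the edgeR fit of only the 8 libraries compared it passed (-0.67, adjusted p = 0.0467). Without fenofibrate libraries 1 and 3 it was -0.93 ± 0.39 (adjusted p = 0.272). Without Control library 4, Slc25a25 fell in HFD against Control (-0.90, adjusted p = 0.0156) and in HFD plus fenofibrate against HFD (-0.67, adjusted p = 0.0429). Its exons overlap Naif1 on the other strand by 379 bases. Slc25a24 had 1.88 ± 0.453 CPM with fenofibrate, 1.94 ± 0.335 CPM in HFD and 1.64 ± 0.415 CPM in Control and passed in no comparison.

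The translocases passed in no comparison. Slc25a5, the form of dividing and liver cells, had 439 ± 58.6 CPM with fenofibrate, 454 ± 38.9 CPM in HFD and 492 ± 65 CPM in Control. Slc25a4, the form of heart and skeletal muscle, had 21.8, 5.34, 17.2 and 5.27 CPM in HFD plus fenofibrate, 4.39, 8.07, 5.95 and 8.43 CPM in HFD and 5.99, 7.52, 6.53 and 6.47 CPM in Control. Its high libraries, fenofibrate 1 and 3, were those with muscle markers. The change against HFD was 0.89 ± 0.38 (adjusted p = 0.121) with them and -0.34 ± 0.24 (adjusted p = 0.508) without them. It passed where fenofibrate library 2 (1.13, adjusted p = 0.0352) or 4 (1.14, adjusted p = 0.0462) was left out. Against Control the change was 0.91 ± 0.38 (adjusted p = 0.146), and 1.16 without fenofibrate library 2 (adjusted p = 0.0444). Ucp3, a family member under another symbol that is known from skeletal muscle, was not tested for its low counts.

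**Figure D5:**
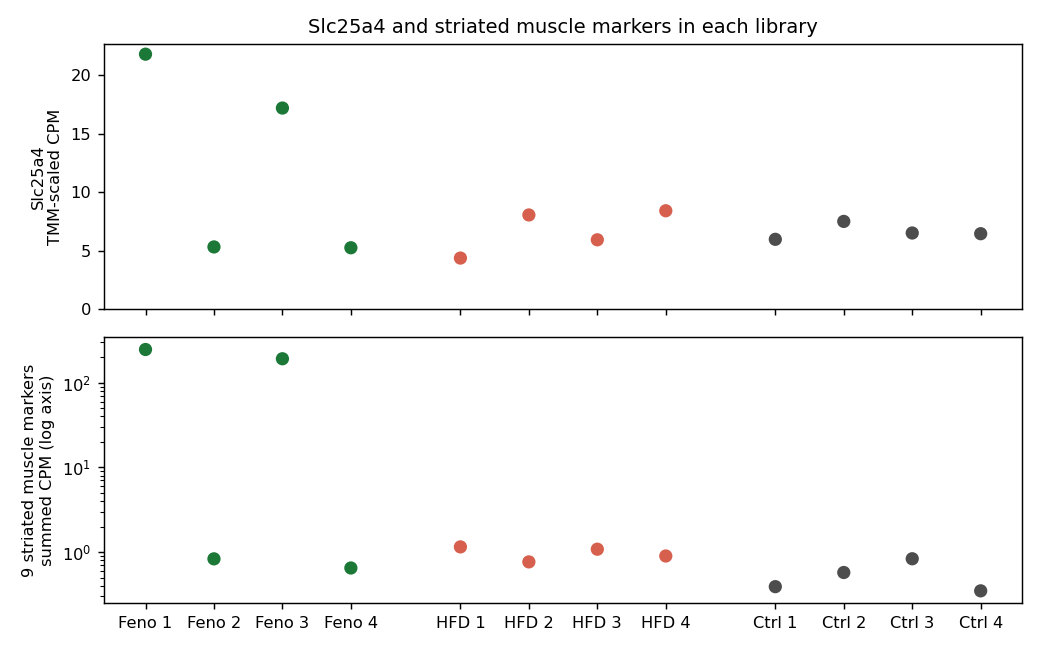
Upper panel, Slc25a4 in TMM-scaled CPM; lower panel, the sum of 9 striated muscle markers in CPM of total counts (log axis), for each HFD plus fenofibrate (Feno), HFD and Control (Ctrl) library. Fenofibrate libraries 1 and 3 are high in both panels, with 21.8 and 17.2 CPM of Slc25a4 and 247 and 192 CPM of muscle markers.

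Genes that work beside the carriers were read from the same fits. Over all genes tested, 13.5% passed for fenofibrate against HFD, 12.8% for HFD against Control and 9.17% for HFD plus fenofibrate against Control. Of 11 enzymes on either side of the malate-aspartate and citrate-malate shuttles, 4 rose and 2 fell with fenofibrate against HFD, 2 rose and 3 fell in HFD against Control, and 1 rose and 1 fell in HFD plus fenofibrate against Control. The aspartate aminotransferase of the cytosol, Got1, had 266 ± 78.1 CPM in HFD plus fenofibrate, 123 ± 30.8 CPM in HFD and 662 ± 134 CPM in Control. Its change was 1.11 ± 0.23 for HFD plus fenofibrate against HFD (adjusted p = 0.00746) and -2.43 ± 0.24 for HFD against Control (adjusted p = 1.4e-05). Matrix Idh2 had changes of 0.71 and -0.86 in these comparisons, while cytosolic Idh1 had -0.71 and 0.45 and malic enzyme Me1 had -0.70 and 1.40. Matrix Got2 and Mdh2 rose by 0.43 and 0.38 with fenofibrate against HFD. Without fenofibrate libraries 1 and 3, Idh2 alone of this list passed for fenofibrate against HFD and Got1 alone for fenofibrate against Control.

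Mitochondrial transporters outside the family had 14 tested genes, of which 3 rose with fenofibrate against HFD (Abcb8 by 0.71, Sfxn2 by 0.52 and Letm1 by 0.36), and 2 fell with the diet against Control (Sfxn2, -0.39, and Sfxn1, the serine carrier, -0.33). In HFD plus fenofibrate against Control, Abcb8 rose (0.56) and Sfxn1 fell (-0.39), and 0 genes of this list passed without fenofibrate libraries 1 and 3. Of the 15 tested genes of the route that imports carriers through the outer membrane and the TIM22 complex, Tomm40, the outer membrane pore, rose (0.47) and Timm9 (-0.48) and Tomm70a (-0.38) fell with fenofibrate against HFD. Against Control, Timm10 (-0.47), Tomm40 (-0.42) and Tomm20 (-0.38) fell in HFD, and Timm10 (-0.68) and Timm9 (-0.53) fell in HFD plus fenofibrate, of which Timm10 passed without fenofibrate libraries 1 and 3. Another list held 12 genes of the matrix, the inner membrane and mitochondrial DNA upkeep. Of them the protease Lonp1 (0.45) and the prohibitin Phb2 (0.40) rose with fenofibrate against HFD, and 0 passed in the other comparisons. The median change of these 12 was 0.11 for fenofibrate against HFD, -0.06 for HFD against Control and -0.03 for HFD plus fenofibrate against Control. Abcb8 was the only gene of these 3 lists to pass for fenofibrate against HFD without fenofibrate libraries 1 and 3. Counts of these lists stand beside 13.5% of all genes for fenofibrate against HFD, 12.8% for HFD against Control and 9.17% for HFD plus fenofibrate against Control. Family members under other symbols that could be tested, Ucp2, Mtch1 and Mtch2, passed in no comparison by edgeR.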

How the data were processed

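Liver RNA-seq of 12 libraries was analysed. The authors deposited raw counts per Ensembl gene, named so in the file headers, in 2 tables. The 4 HFD libraries are in both, and their values differed in 0 cells. HISAT2 2.0.5, StringTie 1.3.2d and HTSeq 0.6.0 are named in the submitters' processing notes without settings. The sources used here do not give the strand setting or the annotation release. The authors' deposited mean signal per gene (baseMean, per the file headers) was not used. The authors' deposited log2 fold change, fold change (a ratio), p-value and adjusted p-value come from a test that the file headers do not name. The labels name builds mm8 and mm9, but positions match GRCm38: 92.5% of 25113 identifiers have the position of GENCODE M21, as do 33 of the 41 members.

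The tables were joined by identifier, with counts of 0 for genes absent from 1 table (1389 genes were only in the fenofibrate table and 1118 only in the diet table). No per-sample column was left unassigned. Another 4 genes with such symbols are not reported here. In edgeR 4.0.16 under R 4.3.3, filterByExpr kept 13477 of 25164 genes, holding 99.87% of counts, TMM scaling was applied (factors 0.99 to 1.16 with fenofibrate, 0.896 to 1.03 in HFD, 0.884 to 0.997 in Control), and all 12 libraries entered 1 quasi-likelihood model whose coefficients are the 3 group means. P-values were adjusted over all genes tested. SE is the log2 change divided by the square root of F, and the prior count was 0.125. Exon lengths are from GENCODE M21. The common biological coefficient of variation was 0.155, and chi-square per gene between libraries of a group was 13.9 to 38.5 over 18 pairs. Same-numbered libraries had r from -0.175 to 0.139 after group means were removed (mean 0.003, 12 pairs), so numbers were not taken as pairs.

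Members and lists were chosen with earlier results of these data known. Values per library are given for members that passed in any comparison with a change of at least 1.5-fold or a mean of at least 20 CPM; Slc25a34, Slc25a4 and members named by group values were added after their values were seen. Of each other list, up to 4 passing genes per comparison were named. Sums and levels were not tested. Steps were tested on simulated counts. Alternatives were DESeq2 1.42.0, limma-voom (limma 3.58.1), RLE or no scaling, other filters, the 8 libraries compared, a replicate block and each library left out; the fit without fenofibrate libraries 1 and 3 was added after seeing the data.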

Additional observations from a re-analysis of the deposited data

Results flagged for a closer look

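Of 87 groups of 4 libraries examined, 6 had a library far from the rest of its group by Dixon's criterion, and chance flags about 1 in 20. Slc25a3 was 310 CPM in fenofibrate library 1, below the other 3 of its group. Slc25a25 was 137 CPM in Control library 4, far below the other Control libraries. That value enters both comparisons with Control and, through the shared estimate of spread, fenofibrate against HFD. The change against HFD was -0.68 (adjusted p = 0.15) with this library and -0.67 (adjusted p = 0.0429) without it, by edgeR. Slc25a47 was 930 CPM in HFD library 1, above the other HFD libraries. The sum of the pancreatic acinar markers was 2187 CPM for library 1 of the fenofibrate group. Endothelial markers were lowest of their group in library 2 with fenofibrate, at 246 CPM, and in HFD library 1, at 159 CPM. The part of these libraries in the results was not tested beyond leaving each out in turn.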

How the results depend on the processing

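Slc25a30 kept its direction and its call in all 3 comparisons under each of 21 alternatives, as did Slc25a12, Slc25a21, Slc25a22, Slc25a39, Slc25a45, Slc25a47 and Slc25a51 for HFD against Control and Slc25a22, Slc25a23 and Slc25a47 for HFD plus fenofibrate against Control. With each library left out in turn, the count of members for fenofibrate against HFD was 0 to 7 higher and 2 to 3 lower, with 7 without fenofibrate library 2 or Control library 1. For HFD against Control it was 3 to 5 higher and 5 to 8 lower, and for HFD plus fenofibrate against Control 2 to 4 higher and 4 to 6 lower. Counts over all genes are not given for these fits or for the replicate block below. For HFD plus fenofibrate against Control, 2 rose without fenofibrate library 1 or 3 or Control library 2. Total counts without TMM gave 10 and 9 members higher in the comparisons with fenofibrate (against HFD and against Control) and a summed level of 3703 CPM with fenofibrate. Without fenofibrate libraries 1 and 3, 0 rose and 1 fell against HFD, and 1 rose and 3 fell against Control. The pairing by replicate number, fitted as a block, gave 4 higher and 2 lower for fenofibrate against HFD, 3 and 7 for HFD against Control and 3 and 5 for HFD plus fenofibrate against Control. Under the block Slc25a3 (0.27, adjusted p = 0.07), Slc25a21 (0.50 for fenofibrate against Control, adjusted p = 0.0592), Slc25a23 (0.36 for HFD against Control, adjusted p = 0.0533) and Slc25a34 (-0.49 for fenofibrate against Control, adjusted p = 0.0662) missed the threshold.

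No call changed sign. Among the genes that passed in some comparison, values that missed the threshold and changed sign for fenofibrate against HFD were, with total counts, Slc25a21 (0.07), Slc25a45 (0.01) and Slc25a51 (0.12); without fenofibrate library 1 or library 3, Slc25a22 (-0.01 each; -0.01 to 0.14 over single libraries left out), and without the pair -0.18; and Slc25a51 without fenofibrate library 2 (0.02) or HFD library 2 (0.13; -0.12 to 0.13 over single libraries left out). For fenofibrate against Control, total counts gave 0.03 for Slc25a28 and 0.05 for Slc25a39. Of the genes that passed in none, Slc25a4 (-0.34), Slc25a5 (0.05) and Slc25a14 (0.04) against HFD and Slc25a4 (-0.31) and Slc25a24 (-0.02) against Control were among those that changed sign without fenofibrate libraries 1 and 3. The cause was not tested. Depth limits Slc25a27 and Slc25a29 most among the genes that passed.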
